A study of Mus musculus with 4 samples.

Results

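The genes described here are 9 members of fibroblast growth factor (FGF) receptor signalling: the receptors Fgfr1, Fgfr2 and Fgfr3, the transcription factors Etv4 and Etv5, the Sprouty genes Spry1, Spry2 and Spry4, and the phosphatase gene Dusp6. They are 9 of the 19040 genes listed for both brain regions. The set was chosen from measured values of these data, because Etv4 was higher in transgenic midbrain astrocytes, so that difference is given as a description only. Cells were dissociated from the frontal cortex and the midbrain of transgenic mice labelled Hua-Syn(A53T), which carry a human alpha-synuclein transgene with the A53T change, and of wildtype littermates labelled C57BL/6, all aged 6 to 9 months. Each combination of region and genotype was 1 library from a group of 3 mice, with no record of which cell came from which mouse, and the dissociation was directed at glial and vascular cells. The labels name neither the promoter that drives the transgene nor the founder line. With 1 library per group there was no replicate check. All intervals are 95% counting intervals, and no difference was tested.

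FGF ligands bind receptor tyrosine kinases on the cell surface together with heparan sulphate, and the activated receptors signal through Ras to the kinases ERK1 and ERK2. ERK activity raises transcription of the ETS factors Etv4 and Etv5, and of Sprouty and Dusp genes whose products feed back on the pathway. Sprouty proteins restrain signalling between the receptor and ERK, and Dusp6 is a phosphatase that inactivates ERK itself. Fgfr3 is known as a marker of astrocytes and their precursors, and FGF signalling is known to hold astrocytes in a non-reactive state.

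The cortical libraries held 3775 cells (transgenic) and 6239 cells (wildtype), and the midbrain libraries 3995 and 7635. The cells that the authors labelled AC, called astrocytes here, numbered 868 transgenic and 1067 wildtype in the cortical libraries and 1512 and 2644 in those of midbrain. They carried between 6981554 and 16467288 unique molecular identifiers (UMIs, the count of captured RNA molecules) per library. Levels are UMIs per 1000000 UMIs of the summed cells (CPM). Of 12 astrocyte markers, 11 were highest in AC in frontal cortex and 8 in midbrain, where 3 of the others were highest in the cells labelled TNC. Prnp, the prion protein gene used as a check of the genotype labels, was at 1794 CPM in transgenic against 1231 CPM in wildtype frontal cortex astrocytes, and at 1778 against 1512 CPM in midbrain. As the labels name no promoter, these values do not by themselves establish the genotypes. Of 21598 barcode sequences, 46 occurred in more than 1 library. Some features moved with genotype among the astrocytes. Mitochondrial UMIs made up a median of 9.68% of a transgenic and 5.27% of a wildtype frontal cortex astrocyte, against 7.07% and 6.54% in midbrain. The sum of 8 microglial markers was 475 against 947 CPM in frontal cortex and 246 against 226 CPM in midbrain, and that of 7 endothelial markers 229 against 578 and 127 against 179 CPM. The sum of 5 erythroid markers was 314 against 20.1 CPM in frontal cortex and 261 against 47.0 CPM in midbrain. That of 7 neuronal markers was 89.8 against 36.4 CPM in frontal cortex and 54.2 CPM in both midbrain libraries, and that of 4 choroid plexus markers 1930 against 3501 CPM in midbrain. None of the microglial and endothelial markers was at 0, and the same lists reached at least 34181 CPM in microglia and 22493 CPM in endothelial cells. Their part in the astrocyte results was not tested. A limit on UMIs of such markers, used below, lowered the microglial and endothelial markers but did not remove them.

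The receptors divided the cell types first. Fgfr3 (chromosome 5, 33721674 to 33737068, plus strand, GRCm38) was close to restricted to astrocytes among the types with at least 50 cells. Its level there was 654 CPM in transgenic and 538 CPM in wildtype frontal cortex, and 720 and 726 CPM in midbrain. The next type in each library reached 21.0, 13.0, 24.2 and 63.6 CPM in that order, and none of these intervals overlapped that of astrocytes. Fgfr1 (chromosome 8, 25513654 to 25575718, plus strand) was broader. It was at 254 and 261 CPM in transgenic and wildtype frontal cortex astrocytes and at 158 and 146 CPM in midbrain astrocytes, between 106 and 125 CPM in smooth muscle cells (SMC) and between 59.1 and 77.5 CPM in pericytes (PC). In wildtype midbrain the cells labelled OLG and EPC had 169 and 155 CPM, and in wildtype frontal cortex those labelled CPC had 157 CPM. The cells labelled OPC had 235 to 396 CPM of Fgfr1. That label means oligodendrocyte progenitors, and 6 of 7 progenitor markers were highest in it in frontal cortex. In midbrain, 7 of 7 were highest in the cells labelled imNeur. Fibroblast markers were highest in OPC too, 5 of 5 in frontal cortex and 4 of 5 in midbrain. In wildtype frontal cortex the Fgfr1 level of OPC did not differ from that of astrocytes beyond counting error. That level pooled deposited clusters 23 and 27, which had 353 CPM (302 to 409) and 120 CPM (79.2 to 175). Fgfr2, on the minus strand of chromosome 7, was at 96.8 and 104 CPM in transgenic and wildtype frontal cortex astrocytes. In midbrain astrocytes it was at 55.1 and 53.3 CPM. Among types with at least 50 cells, astrocytes were highest in Fgfr2 in all libraries but wildtype midbrain. The next types in frontal cortex were imNeur in transgenic (51.5 CPM) and CPC in wildtype (57.9 CPM). In wildtype midbrain, OLG and OPC had 63.6 and 63.4 CPM, and the OPC interval overlapped that of astrocytes. Fgfr2 was at most 4.0 CPM in microglia, endothelial cells and pericytes.

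Etv4 (chromosome 11, 101769742 to 101785371, minus strand) was found at appreciable levels in few types. Astrocytes had 63.0 CPM in transgenic and 58.5 CPM in wildtype frontal cortex, and 84.1 and 46.5 CPM in midbrain. Microglia (MG) had 0.8 to 1.7 CPM and endothelial cells (EC) 0.1 to 2.3 CPM. The exceptions were cells with markers of oligodendrocyte progenitors. The midbrain label imNeur, in which 7 of 7 such markers were highest, had 84.3 CPM in 13 transgenic cells and 96.3 CPM (73.3 to 124) in 71 wildtype cells. The frontal cortex label OPC had 68.1 and 35.0 CPM, and its deposited clusters differed. Cluster 27, with 7512 and 8430 CPM of the summed progenitor markers, had 117 CPM of Etv4 in 19 transgenic cells and 107 CPM in 29 wildtype cells. Cluster 23, with 502 and 721 CPM of those markers and 6943 and 5548 CPM of fibroblast markers, had 7.6 and 2.0 CPM from 1 UMI in each library. Etv4 was thus shared by astrocytes and cells with progenitor markers, and nearly absent from the other types.

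Etv5 (chromosome 16, 22381309 to 22439719, minus strand), the closest relative of Etv4 among the members, had another distribution. It was at 54.3 and 49.1 CPM in transgenic and wildtype frontal cortex astrocytes and at 72.6 and 51.0 CPM in midbrain astrocytes. Microglia had similar levels, 69.7 and 59.0 CPM in frontal cortex and 73.6 and 55.9 CPM in midbrain. Astrocytes and microglia could not be ordered by Etv5 in midbrain, where their intervals overlapped in both genotypes. Macrophages (MAC) had 29.3 to 52.7 CPM. In wildtype frontal cortex they stood between microglia and astrocytes, with overlapping intervals. The midbrain imNeur cells had the highest level, 179 CPM (148 to 216) in wildtype.

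The feedback genes were not all highest in the same types. Spry2 (chromosome 14, 105891947 to 105896819, minus strand) was highest in astrocytes in all 4 libraries. Its astrocyte levels were 237 CPM in transgenic and 164 CPM in wildtype frontal cortex, and 180 and 141 CPM in midbrain. Pericytes followed with 97.8 to 112 CPM. Spry4, on chromosome 18, was highest in pericytes with 122 to 133 CPM among the types with at least 50 cells, apart from the midbrain wildtype imNeur cells with 178 CPM. In both wildtype libraries its pericyte interval overlapped that of the cells labelled OPC, which had 120 CPM in frontal cortex and 95.7 CPM in midbrain. Spry1 (chromosome 3, 37639947 to 37644598, plus strand) was nearly missing from astrocytes, with 1.6 to 4.4 CPM. It was at 68.6 to 83.4 CPM in pericytes, 30.4 to 60.9 CPM in endothelial cells and 22.2 to 26.4 CPM in microglia. In the wildtype libraries the cells labelled OPC had the most Spry1, 166 CPM in frontal cortex and 160 CPM in midbrain. The midbrain OPC interval overlapped that of the imNeur cells, which had 132 CPM. Dusp6 (chromosome 10, 99263231 to 99267489, plus strand) was highest in microglia with 305 to 343 CPM and next in macrophages with 188 to 283 CPM. In midbrain wildtype the microglial and macrophage intervals overlapped. Astrocytes had 36.4 to 60.5 CPM of Dusp6.

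**Figure D1:**
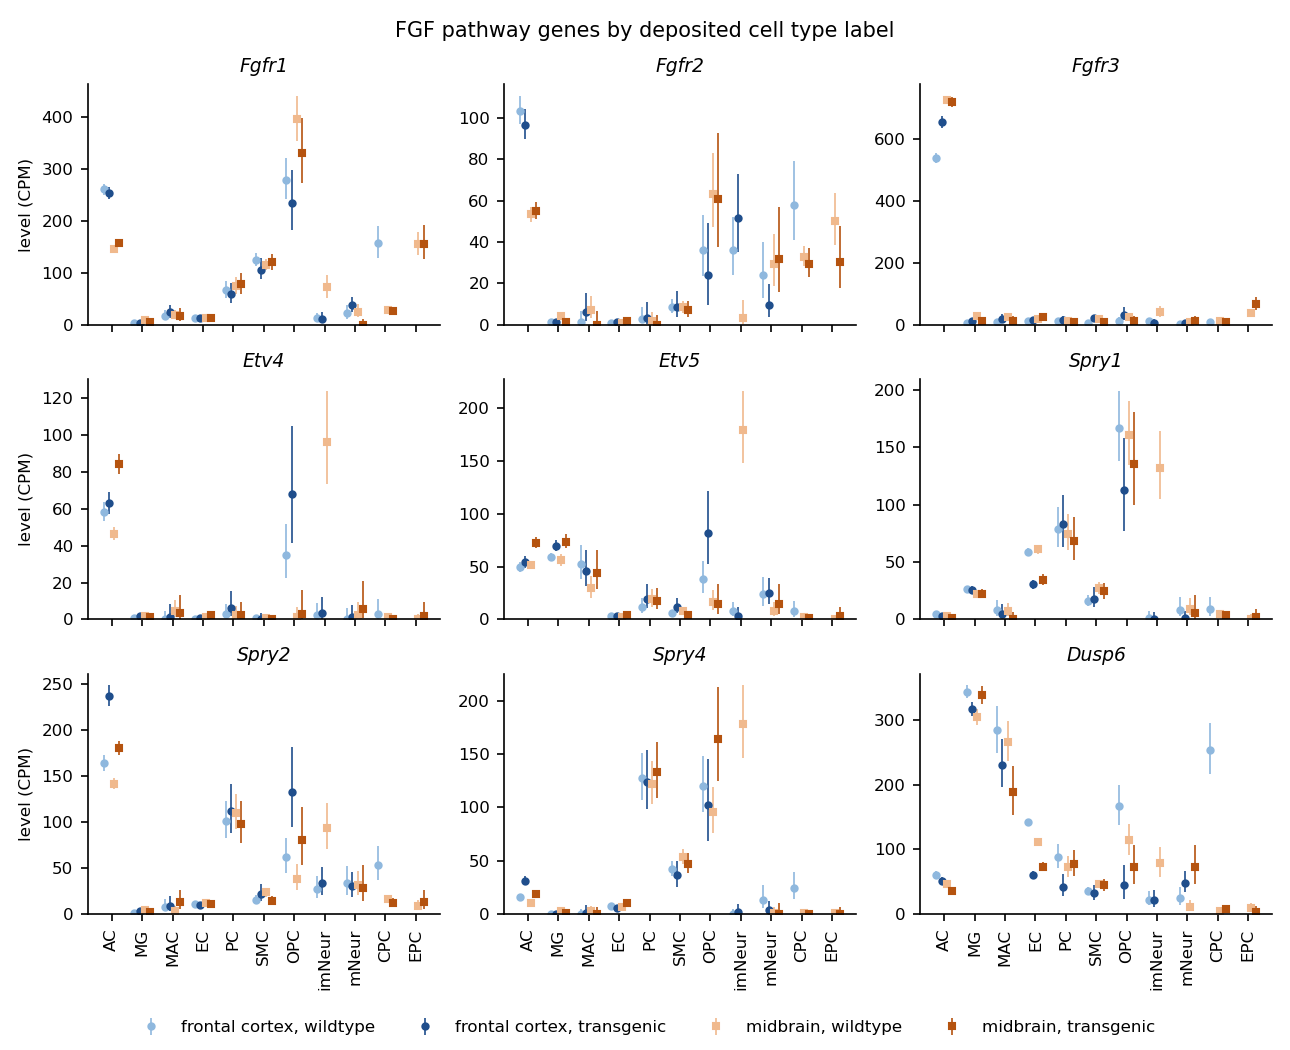
Level in CPM (y axis, linear, from 0) of each of the 9 genes by deposited cell type label (x axis), for libraries with at least 30 cells of the label. Points are library levels and bars 95% Poisson counting intervals. Fgfr3 and Spry2 are highest in AC, Dusp6 in MG, and Spry4 in PC apart from midbrain imNeur and OPC points.

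Promoter windows of 300 bases from RefSeq (GRCm38.p6) were searched for 6 of the 9 members, 8 windows in all. Windows of Fgfr1, Etv4 and Spry4 were not searched. The letters CCGGAAGT, a typical high-affinity site of ETS factors such as Etv4 and Etv5, were searched on both strands. They occurred in 0 of the 8 windows, and in 3.89% of all 32851 windows, and this says only that these letters are not in these windows. The 250 bases before the annotated start are shown for 3 of the feedback genes, Spry1, Spry2 and Dusp6. The shorter ETS core GGAA, or TTCC where it lies on the other strand, is in capitals. The core was searched after the longer letters had not been found.
Spry1, chr3:37639697-37639946, plus strand: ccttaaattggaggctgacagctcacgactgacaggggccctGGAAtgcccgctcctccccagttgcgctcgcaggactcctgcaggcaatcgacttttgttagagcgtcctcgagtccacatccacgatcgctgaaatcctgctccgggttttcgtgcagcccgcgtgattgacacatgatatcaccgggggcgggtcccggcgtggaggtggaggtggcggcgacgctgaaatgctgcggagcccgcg
Spry2, chr14:105896820-105897069, minus strand: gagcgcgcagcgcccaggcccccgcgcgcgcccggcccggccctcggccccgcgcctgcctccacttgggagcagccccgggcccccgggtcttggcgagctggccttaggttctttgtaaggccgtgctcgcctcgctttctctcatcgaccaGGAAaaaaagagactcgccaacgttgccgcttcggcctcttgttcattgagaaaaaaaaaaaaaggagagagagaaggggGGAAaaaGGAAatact
Dusp6, chr10:99262981-99263230, plus strand: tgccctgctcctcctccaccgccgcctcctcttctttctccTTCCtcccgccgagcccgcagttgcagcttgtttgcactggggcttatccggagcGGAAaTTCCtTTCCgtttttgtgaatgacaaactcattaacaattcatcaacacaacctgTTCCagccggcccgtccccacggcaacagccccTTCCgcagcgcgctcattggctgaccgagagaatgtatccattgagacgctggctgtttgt
The core occurred 6 times before Dusp6, and 8.69% of all windows held at least as many. It occurred 3 times before Spry2 and 1 time before Spry1, where 54.7% and 93.4% of windows held at least as many. The median over all windows was 3. These matches describe letters and not bound sites.

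In astrocytes the genotypes were compared next. The receptors differed little. Fgfr1 had log2 ratios of transgenic over wildtype of -0.04 (-0.13 to 0.05) in frontal cortex and 0.11 (0.02 to 0.19) in midbrain. Fgfr2 had ratios of -0.10 (-0.24 to 0.05) and 0.05 (-0.10 to 0.20). Fgfr3 was higher in transgenic frontal cortex, with a log2 ratio of 0.28 (0.22 to 0.34), and was level in midbrain, with -0.01 (-0.05 to 0.03). Its midbrain minus frontal cortex difference was -0.29 (-0.36 to -0.22).

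Over all astrocytes of a library, the ETS factors differed more in midbrain than in frontal cortex. Etv4 was at 84.1 CPM from 969 UMIs in transgenic and 46.5 CPM from 766 UMIs in wildtype midbrain, a log2 ratio of 0.85 (0.72 to 0.99), which is the value for which the set was chosen. In frontal cortex the levels of 63.0 and 58.5 CPM gave 0.11 (-0.08 to 0.30). The difference between the regional ratios was 0.75 (0.52 to 0.98). It contains the midbrain ratio that chose the set, so it is a description only. No single cell held more than 7 of these UMIs, and the 10 highest transgenic midbrain cells held 51 of the 969. After every cell was thinned to 3000 UMIs, 251 of 1201 transgenic midbrain astrocytes (20.9%, 18.6 to 23.3) and 265 of 2209 wildtype ones (10.7% to 13.4%) had a UMI of Etv4, against 16.1% and 13.7% in frontal cortex. In microglia, which have almost no Etv4, the share was 0.17% to 0.56%. Before thinning, the median depth of these cells was 9033 and 6829 UMIs in midbrain astrocytes and 7222 to 9133 UMIs in microglia. Without thinning the midbrain shares were 38.6% and 21.9%. Etv5 was at 72.6 CPM in transgenic and 51.0 CPM in wildtype midbrain, a log2 ratio of 0.51 (0.37 to 0.65). In frontal cortex its ratio was 0.15 (-0.06 to 0.35), and the regional difference was 0.36 (0.12 to 0.61). This gap in Etv5 depended on the processing. Over 10 alternatives its ratio ranged from -0.01 to 0.38 in frontal cortex and from 0.38 to 0.72 in midbrain. Within clusters its median ratio was 0.40 over 2 frontal cortex clusters and 0.43 over 6 midbrain clusters.

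The feedback genes did not move in 1 direction. Spry2 was the higher in the transgenic library of each region, with log2 ratios of 0.53 (0.42 to 0.63) in frontal cortex and 0.35 (0.26 to 0.44) in midbrain. Spry4 was higher too, at 31.1 CPM in transgenic against 16.2 CPM in wildtype frontal cortex and at 18.8 against 10.5 CPM in midbrain. Its log2 ratios were 0.94 (0.62 to 1.25) and 0.84 (0.55 to 1.14), and their difference was -0.09 (-0.52 to 0.33). Dusp6 was lower in transgenic astrocytes, at 51.3 against 60.5 CPM in frontal cortex and 36.4 against 47.1 CPM in midbrain, with log2 ratios of -0.24 (-0.44 to -0.04) and -0.37 (-0.55 to -0.20). Spry1 had 20 and 37 UMIs in frontal cortex and 19 and 49 in midbrain, too few to place it. Dusp6 is abundant in microglia and endothelial cells, whose summed markers were also lower in transgenic frontal cortex astrocytes. Among astrocytes with fewer than 4 UMIs of markers of 6 other cell types, the Dusp6 log2 ratio was -0.39 in frontal cortex, where microglial markers were at 230 CPM in transgenic and 182 CPM in wildtype cells and endothelial markers at 98.1 and 140 CPM. That limit kept 25.9% of transgenic and 26.2% of wildtype frontal cortex astrocytes. Their median depth was 2628 and 3549.5 UMIs, against 6638.5 and 7983 UMIs in all astrocytes of these libraries. As RNA of other types remained in these shallow cells, the part of microglial and endothelial RNA in this difference was not tested. The midbrain ratio of Dusp6 was -0.08 in cells under 5% mitochondrial UMIs, and -0.04 when the clusters were weighted alike. The Spry2 ratio of frontal cortex was 0.80 under 5% mitochondrial UMIs.

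**Figure D2:**
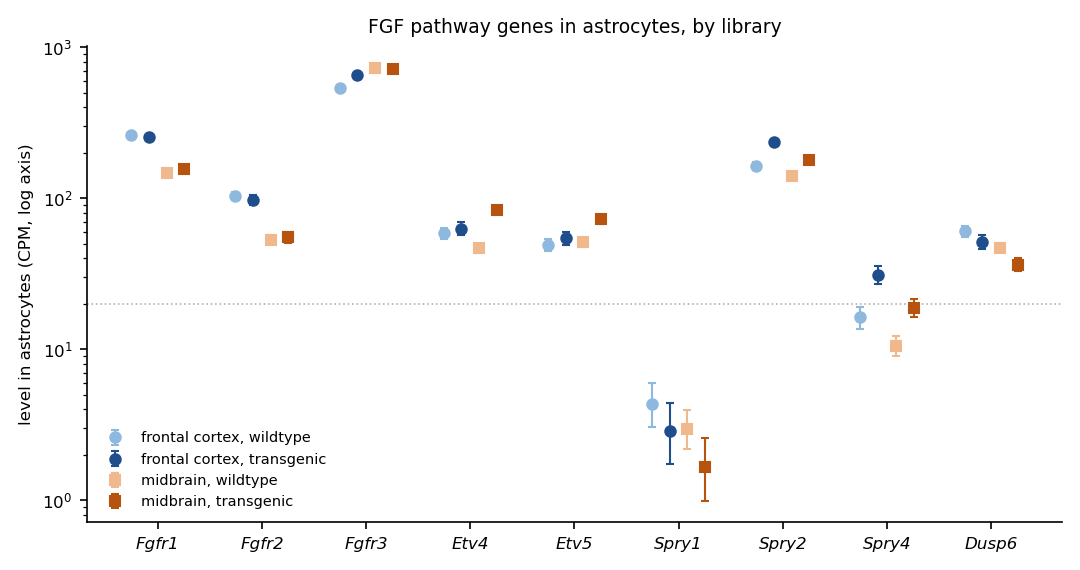
Level in astrocytes in CPM (y axis, log scale) of the 9 genes (x axis) in the 4 libraries, with 95% Poisson counting intervals. The dotted line marks 20 CPM. Etv4 and Etv5 stand apart in the midbrain transgenic library, with 84.1 and 72.6 CPM, while Spry2 and Spry4 are higher and Dusp6 lower in both transgenic libraries.

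Counted against all genes, a gene entered at 20 CPM or more in at least 1 of the libraries compared. In frontal cortex 8 members entered, and Spry4 was 1.5 times higher or more, as were 3.6% of 7120 genes. Spry4 entered through its transgenic level alone, so it could only count as higher. None was 1.5 times lower, against 2.96% of genes. At 1.2 times, 3 were higher (Fgfr3, Spry2 and Spry4) and 0 lower, against 17.1% and 15% of all genes. The median log2 ratio was 0.13 over these 8 and 0.01 over all genes. In midbrain 7 members entered, without Spry1 and Spry4, the latter just under the limit at 18.8 CPM. Etv4 was 1.5 times higher, as were 0.806% of 7075 genes, and no member was 1.5 times lower, against 0.594%. At 1.2 times, Etv4, Etv5 and Spry2 were higher and Dusp6 was lower, against 9.3% and 6.35% of genes. Since the midbrain contrast chose the set, nothing is read from these midbrain counts.

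The deposited astrocyte clusters were compared within themselves where both libraries had at least 50 cells, 2 clusters in frontal cortex and 6 in midbrain. Among clusters with enough UMIs, Etv4 was above 0 in log2 ratio in 2 of 2 in frontal cortex, with 1 interval above 0. In midbrain it was above 0 in 5 of 5, with 4 intervals above 0. These midbrain clusters divide the cells whose Etv4 difference chose the set, so their values are a description only. In midbrain cluster 5 Etv4 was at 63.2 against 24.7 CPM (1.36, 0.98 to 1.73), in cluster 1 at 97.0 against 54.3 CPM (0.84) and in cluster 3 at 94.7 against 57.6 CPM (0.72). In the largest frontal cortex cluster, cluster 1, it was at 80.3 against 63.2 CPM (0.35, 0.13 to 0.56), above the pooled frontal cortex ratio of 0.11. The shallow cluster 4 of frontal cortex, with 28.2 and 24.9 CPM of Etv4, made up 309 of 868 transgenic and 205 of 1067 wildtype astrocytes. In cells under 5% mitochondrial UMIs the ratio of midbrain cluster 3 was 0.25 and that of cluster 1 was 1.13. Spry2 was above 0 in 8 of 8 clusters, with 6 intervals above 0 and ratios from 0.22 to 0.64. Spry4 was above 0 in 7 of 7 clusters, with 3 intervals above 0. Etv5 was above 0 in 7 of 8, with 3 intervals above 0, of which midbrain clusters 1 and 5 had 0.64 and 0.68. Dusp6 was below 0 in 7 of 8 clusters, with 3 intervals below 0. Fgfr3 was above 0 in both frontal cortex clusters, at 0.35 and 0.50, and on both sides of 0 in midbrain. Cluster ratios share libraries and are not replicates.

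**Figure D3:**
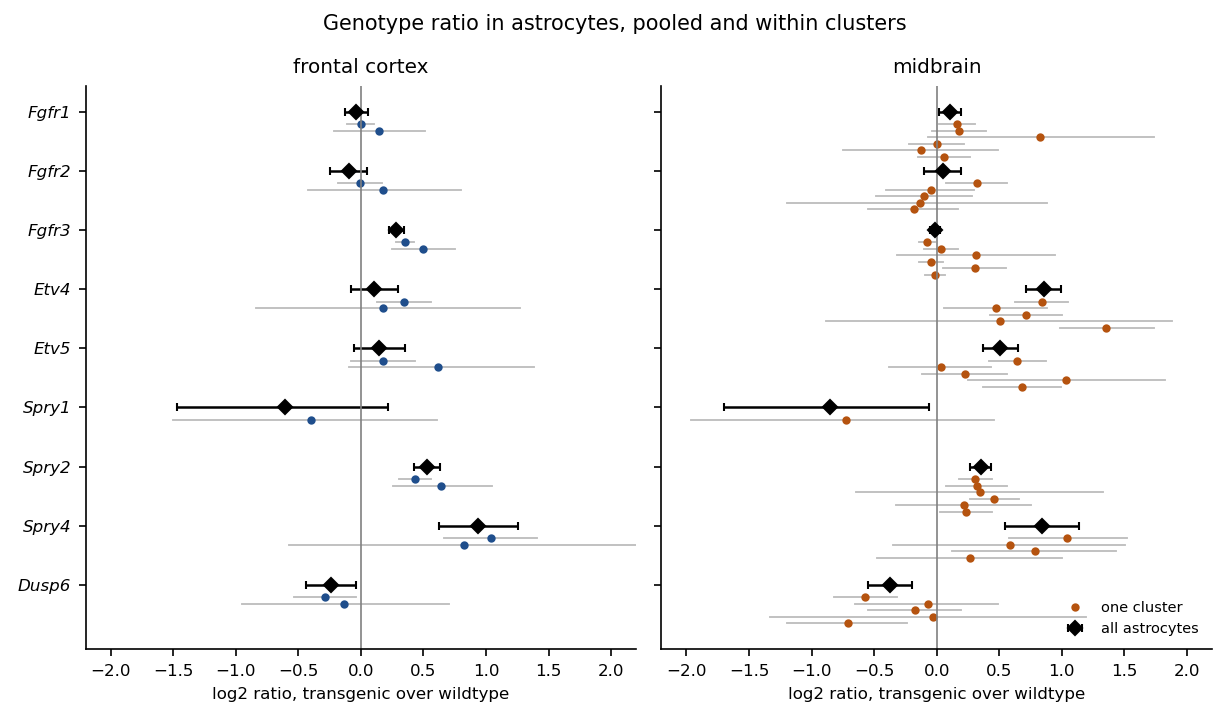
Log2 ratio of transgenic over wildtype (x axis) for the 9 genes (y axis) in frontal cortex (left) and midbrain (right). Black diamonds are all astrocytes, coloured points deposited clusters with at least 50 cells in each library and 20 UMIs of the gene, and bars 95% counting intervals, cut at the axis limits. All plotted cluster points of Etv4, Spry2 and Spry4 lie above 0.

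The regions were compared within each genotype. Fgfr1 and Fgfr2 were lower in midbrain than in frontal cortex astrocytes. The log2 ratio of midbrain over frontal cortex was -0.83 (-0.92 to -0.75) in wildtype and -0.69 (-0.78 to -0.59) in transgenic for Fgfr1, and -0.96 (-1.09 to -0.82) and -0.81 (-0.97 to -0.65) for Fgfr2. Fgfr3 went the other way, with 0.43 (0.38 to 0.48) in wildtype and 0.14 (0.09 to 0.19) in transgenic. Etv4 was lower in wildtype midbrain, at 46.5 against 58.5 CPM (-0.33, -0.50 to -0.16), and higher in transgenic midbrain, at 84.1 against 63.0 CPM (0.42, 0.25 to 0.58). Etv5 had 0.06 (-0.12 to 0.23) and 0.42 (0.24 to 0.60). Spry2, Spry4 and Dusp6 were lower in midbrain in both genotypes, with ratios of -0.21 and -0.39, -0.63 and -0.72, and -0.36 and -0.50 in wildtype and transgenic. At 1.5 times, 2 of 7 members were lower in wildtype midbrain and none higher, against 7.06% and 6.58% of 7193 genes. In transgenic midbrain 3 of 8 were lower (Fgfr1, Fgfr2 and Spry4) and none higher, against 8.6% and 8.45% of 7323 genes, and Spry4 entered through its frontal cortex level alone. The transgenic libraries were also those with the larger gap in mitochondrial share between regions, and in cells under 5% mitochondrial UMIs the transgenic regional ratio of Etv4 was 0.20.

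Midbrain cluster 10 departed from the other midbrain astrocytes in its receptors. Its leading genes include Fezf2, Lhx2 and Emx2, patterning factors of the forebrain. Fgfr1 was at 249 CPM in transgenic and 221 CPM in wildtype cells of cluster 10, and at 148 and 135 CPM in the other midbrain astrocytes. Fgfr2 was at 91.9 and 95.1 CPM against 51.1 and 46.7 CPM. Fgfr3 was at 599 and 584 CPM against 733 and 748 CPM. All 3 receptors in cluster 10 thus lay nearer than this pool to the levels of frontal cortex astrocytes. The intervals of cluster 10 did not overlap those of the pool. Low Fgfr3 was not particular to cluster 10. Its level was 582 CPM in transgenic and 472 CPM in wildtype cells of cluster 4, and 438 and 352 CPM in cluster 22. Clusters 1, 3 and 5 had 692 to 817 CPM. Fgfr1 in cluster 22 was at 267 CPM (173 to 394) in transgenic and 151 CPM (93.4 to 231) in wildtype cells. Etv4 did not separate cluster 10 from the pool in transgenic cells, with 76.9 CPM (61.6 to 94.9) in cluster 10 and 84.9 CPM (79.4 to 90.7) in the pool. Frontal cortex cluster 22 had the lowest Fgfr1 of its region in transgenic cells, 127 CPM (95.4 to 167) from 53 cells, against 233 CPM (185 to 289) from 47 wildtype cells. In none of the 10 astrocyte clusters did a member stand above place 103 when genes were ordered by fold against the other astrocytes.

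**Figure D4:**
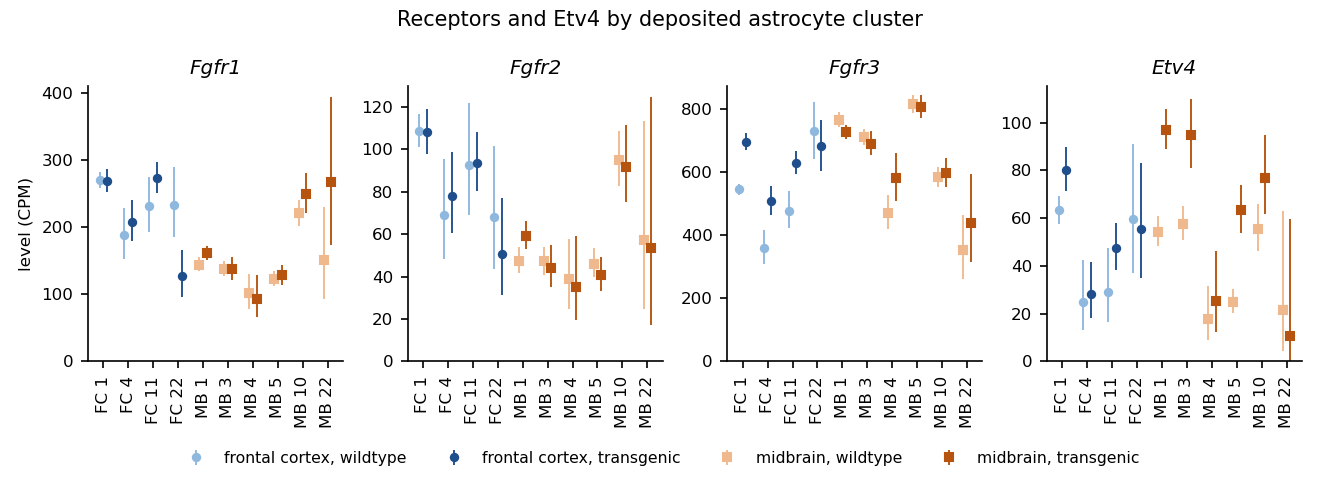
Level in CPM (y axes, linear, from 0) of Fgfr1, Fgfr2, Fgfr3 and Etv4 in each deposited astrocyte cluster of frontal cortex (FC) and midbrain (MB) (x axis), with 95% Poisson counting intervals. Fgfr1 and Fgfr2 of MB 10 sit at 221 to 249 and 91.9 to 95.1 CPM, near FC 1, while Etv4 is higher in transgenic cells of MB 1, 3, 5 and 10.

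Outside astrocytes, Spry1 and Dusp6 were lower in transgenic endothelial cells. Endothelial cells form the vessel wall, where Sprouty genes restrain growth factor signals. Spry1 was at 30.4 CPM in transgenic and 58.4 CPM in wildtype frontal cortex, a log2 ratio of -0.94 (-1.14 to -0.75), and at 34.5 against 60.9 CPM in midbrain, a ratio of -0.82 (-1.03 to -0.61). Dusp6 was at 60.2 against 142 CPM in frontal cortex (-1.24, -1.38 to -1.10) and at 73.3 against 112 CPM in midbrain (-0.61, -0.75 to -0.46). The frontal cortex difference was the larger for Dusp6, with midbrain minus frontal cortex at 0.63 (0.43 to 0.83), while that for Spry1 was 0.12 (-0.16 to 0.41). Both genes were below 0 in 8 of 8 endothelial clusters with at least 50 cells in each library. The interval lay below 0 in 6 clusters for Spry1 and in 7 for Dusp6, and the ratios ranged from -1.31 to -0.39 and from -1.32 to -0.50. Of the members at 20 CPM or more in endothelial cells, 2 of 2 in frontal cortex and 2 of 3 in midbrain were 1.5 times lower, against 1.03% and 0.943% of genes. None was 1.5 times higher, against 1.09% and 0.929%. The other midbrain member, Fgfr3, entered through its transgenic level alone, at 24.2 against 17.7 CPM. Spry4 did not reach 20 CPM and did not follow Spry1 and Dusp6 in midbrain. It was at 10.5 against 6.7 CPM in midbrain (0.64, 0.19 to 1.09) and at 5.7 against 7.2 CPM in frontal cortex (-0.36, -0.86 to 0.12). Microglial markers summed to 349 against 237 CPM in frontal cortex and 165 against 189 CPM in midbrain endothelial cells, and their part in the Dusp6 difference was not tested.

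Microglia had Etv5 and Dusp6 but almost no Etv4 or receptor transcripts. Etv5 was higher in transgenic microglia, with log2 ratios of 0.24 (0.09 to 0.38) in frontal cortex and 0.40 (0.21 to 0.59) in midbrain, and was above 0 in 7 of 8 clusters with 2 intervals above 0. Thinning the cells to 3000 UMIs lowered the midbrain ratio to 0.14. Dusp6 had -0.12 (-0.18 to -0.05) in frontal cortex and 0.15 (0.07 to 0.24) in midbrain. In frontal cortex this rested on cluster 3, at 289 against 378 CPM, while cluster 7 was at 425 against 393 CPM. At 1.2 times, 0 of 3 members were higher and 0 lower in frontal cortex microglia, against 6.04% and 10.1% of genes. In midbrain 1 of 4 was higher (Etv5) and 1 lower (Fgfr3), against 7.57% and 10.3%. Fgfr3 entered through its wildtype level alone, at 13.1 against 29.6 CPM, so it could only count as lower.

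**Figure D5:**
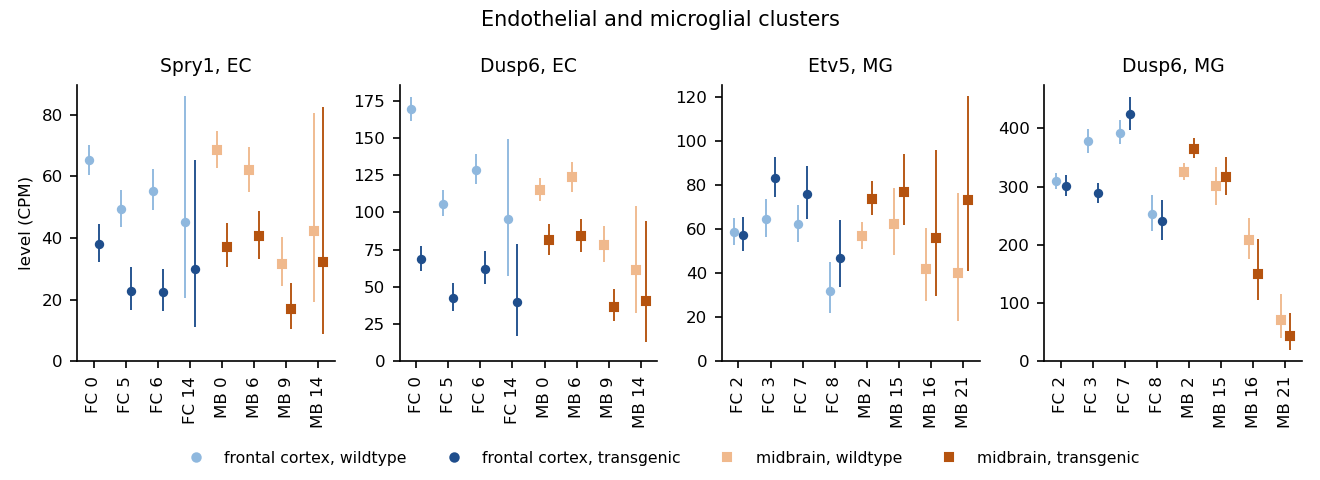
Level in CPM (y axes, linear, from 0) of Spry1 and Dusp6 in endothelial (EC) clusters and of Etv5 and Dusp6 in microglial (MG) clusters of frontal cortex (FC) and midbrain (MB) (x axes), for clusters with at least 50 cells in each library, with 95% Poisson counting intervals. Transgenic points lie below wildtype points in every plotted endothelial cluster, and Dusp6 in microglia shows both orders.

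The rest of the pathway was read from 4 lists chosen with earlier results of these data known. Of the FGF ligands, 15 of 22 were in each table, and 2 in frontal cortex and 1 in midbrain reached 20 CPM in astrocytes. Fgf2, a ligand that binds several FGF receptors, was at 23.6 against 10.6 CPM in transgenic and wildtype frontal cortex (1.16, 0.78 to 1.54) and at 10.2 against 10.7 CPM in midbrain. It entered in frontal cortex through its transgenic level alone. Fgf1 was at 53.9 to 71.2 CPM in astrocytes and highest in smooth muscle cells, with 159 to 194 CPM. Among 10 receptors and co-receptors that passed, Sdc3, a heparan sulphate syndecan, was at 64.7 against 41.0 CPM in frontal cortex (0.66) and at 161 against 115 CPM in midbrain (0.48). The share of all astrocyte genes 1.2 times higher or lower, against which the following counts stand, was 17.1% and 15% for frontal cortex, while for midbrain it was 9.3% and 6.35%. At 1.2 times, 4 of the 10 co-receptor genes were higher and 0 lower in frontal cortex and 1 higher and 0 lower in midbrain. Of the adaptors and ERK cascade genes, 4 of 19 were higher and 1 lower in frontal cortex, and 0 of 18 higher and 2 lower in midbrain, so the share higher in frontal cortex was near that of all genes. The kinase gene Rps6ka3 had the largest of these ratios, at 25.6 against 15.1 CPM in frontal cortex (0.77), and it too entered through its transgenic level alone. Among other ERK targets, feedback genes and repressors, 4 of 9 were higher and 1 lower in frontal cortex, and 1 of 7 was higher and 0 lower in midbrain. Ccnd1, which encodes cyclin D1, was at 53.9 against 25.5 CPM in frontal cortex (1.08), the early response gene Ier3, which entered through its wildtype level alone, was at 16.6 against 26.7 CPM (-0.69), and Cic, which encodes a repressor of Etv genes, was at 36.3 against 24.0 CPM in midbrain (0.59). Over the genes that passed, the median log2 ratios of the co-receptors, cascade genes and targets were 0.14, -0.01 and 0.26 in frontal cortex, beside 0.01 over all genes. The midbrain medians were 0.11, -0.09 and 0.10, beside 0.00, and the midbrain targets include Erf, which entered through its transgenic level alone. The ligands that passed were too few for a median.

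Across 18 pools of astrocytes, each 1 cluster in 1 library with at least 50 cells, the genes most like Etv4 by Pearson's r of log2(CPM + 5) were Gm26798 (0.91), Tmem86b (0.91), Gabrb1 (0.90), Insig1 (0.90) and Gm26518 (0.90), out of 12089 genes. Gabrb1 encodes a GABA-A receptor subunit and Insig1 a regulator of cholesterol synthesis. The other members were less like it, with r of 0.65 for Fgfr3, 0.43 for Etv5, 0.42 for Spry4, 0.41 for Dusp6, 0.38 for Spry2, 0.32 for Fgfr2 and 0.16 for both Fgfr1 and Spry1. The pools share libraries and differ in depth, so these values describe the pools and carry no test.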

How the data were processed

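Cells were captured in droplets with the Chromium 3′ v3 kit, per the labels' protocols, and Cell Ranger 3.0.0, Seurat 3.1.5 and the mm10 genome are named in the submitters' processing notes. Each region was deposited as 1 matrix of UMI counts, whole numbers that had not been scaled. A deposited table lists for every cell the percent of mitochondrial UMIs, its cluster and its type label, per the file headers. Cell filters and doublet removal are not given in the sources used here. The highest deposited mitochondrial share was 20.0%. Labels and clusters were taken as deposited, and 3 normalised columns of each cell table were not used. The labels give the mouse number as 3 for frontal cortex and 0 for midbrain.

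UMI counts were summed per library and type or cluster and scaled to CPM. Levels have exact Poisson intervals. Log2 ratios have exact conditional (Clopper-Pearson) intervals, and differences between regional ratios have Wald intervals. All are at 95% and cover counting error only. Only the intervals of the log2 ratios were checked on simulated counts, for the genotype ratios in astrocytes. A count of 0 set against more than 3 UMIs was set to a floor of 3 UMIs. Because each group was 1 library, no test was run across cells. Genes are named by rule: the 9 members, list genes 1.5 times higher or lower with at least 20 CPM (at most 4 per list and region), the 5 genes most like Etv4, and Prnp as a check of the genotype labels. Sdc3 and Fgf2 of midbrain and Fgf1 were added beside these after their values were seen. Members and lists were chosen with earlier results of these data known. Part of the label check is not reported here.

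Alternatives were edgeR 4.0.16 TMM factors, DESeq2 1.42.0 size factors, library totals that leave out mitochondrial and ribosomal protein genes, an average of CPM taken cell by cell, cells thinned to 3000 UMIs, mitochondrial limits of 5% and 10% (the latter with at least 500 genes), cells with fewer than 4 UMIs of other types' markers, the 10 highest cells left out, and clusters weighted alike. Coordinates are from GENCODE for GRCm38 and promoters from RefSeq for GRCm38.p6. Python 3.11.15 and R 4.3.3 were used.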

Additional observations from a re-analysis of the deposited data

Results flagged for a closer look

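In microglia, 2 of the genes had genotype ratios of opposite sign in the 2 regions, each with a counting interval that leaves out 0, and the difference was not tested across animals. Fgfr3 had a log2 ratio of transgenic over wildtype of 1.03 in frontal cortex (11.8 against 5.8 CPM) and -1.18 in midbrain (13.1 against 29.6 CPM). The sum of 12 astrocyte markers in the same microglia was 744 against 356 CPM in frontal cortex and 470 against 881 CPM in midbrain, so it stood in the same order as Fgfr3 in both regions, and its part in the result was not tested. Dusp6, which microglia hold at 305 to 343 CPM, had -0.12 in frontal cortex and 0.15 in midbrain.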

How the results depend on the processing

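No paired analysis was possible because each group was 1 library. In astrocytes the midbrain genotype log2 ratio of Etv4 was 0.67 with the clusters weighted alike, and ranged from 0.67 to 0.88 over 10 alternatives. In frontal cortex it ranged from 0.00 to 0.28. Spry2, Spry4 and Dusp6 kept their sign under all 10 alternatives in both regions. Etv5 kept its sign in midbrain. Of 180 genotype ratios of the 9 genes in astrocytes, 163 stayed inside the counting interval of the reported value and the rest left it. The sign turned in 6 of the 180. Spry1 of midbrain, whose interval leaves out 0, reached 0.15 in cells with fewer than 4 UMIs of other types' markers. The others had intervals that include 0: Fgfr1 of frontal cortex reached 0.14 under 5% mitochondrial UMIs and 0.02 without mitochondrial and ribosomal genes in the total, Etv5 of frontal cortex -0.01 with thinned cells, and Fgfr2 and Fgfr3 of midbrain -0.03 and 0.05 with clusters weighted alike. The counts depended on the limit for low genes. Without a limit, 1841 genes were 1.5 times higher and 1825 lower in frontal cortex, 1486 and 1228 in midbrain, 2630 and 2372 between transgenic regions, and 2374 and 2423 between wildtype regions. Then 1 of the 9 genes was lower in each region and 2 were higher in midbrain. With a limit of 50 CPM these genes numbered 118 and 101, 16 and 14, 329 and 350, and 272 and 281, and 0 of the 9 were higher in frontal cortex. With astrocytes limited to 5% mitochondrial UMIs, 692 genes were higher in frontal cortex, 183 higher and 112 lower in midbrain, and 974 lower between transgenic regions, and 2 of the 9 were higher in each region. That limit kept 17.6% of transgenic and 46.1% of wildtype frontal cortex astrocytes. The reported counts were 256 and 211, 57 and 42, 619 and 630, and 473 and 508. TMM and DESeq2 factors moved none of the 9 genes across the limit. Of the 5 genes most like Etv4, 4 were shared with a pseudocount of 1. Alternatives for endothelial cells and microglia were chosen after seeing the data, and the endothelial ratios of Spry1 and Dusp6 kept their sign in all 6. Depth limits Spry1 in astrocytes, with 19 to 49 UMIs per library.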

Other observations

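Some FGF ligand genes, picked after their values were seen, had their highest levels outside astrocytes. In frontal cortex, the cells labelled mNeur had 264 CPM of Fgf12 in transgenic and 284 CPM in wildtype, and 50.9 and 71.5 CPM of Fgf9, against 11.7 and 13.5 CPM of Fgf12 and at most 0.24 CPM of Fgf9 in astrocytes. Fgf12 encodes an intracellular homologous factor that is not secreted, and Fgf9 a secreted ligand. In wildtype midbrain, ependymal cells (EPC) had 42.2 CPM of Fgf18 and 32.0 CPM of Fgf7. Frontal cortex astrocyte cluster 11, left out of the ratios within clusters because it had 34 wildtype cells, had 271 CPM (249 to 296) of Spry2 in transgenic and 149 CPM (119 to 185) in wildtype cells, and 630 against 479 CPM of Fgfr3.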
